A study of Arabidopsis thaliana with 2 samples.

Results

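The plastid-encoded photosynthesis genes are the protein-coding genes of the chloroplast's own genome whose products carry out photosynthesis. They were chosen by symbol, as probe sets annotated with a single psa, psb, pet, ndh or named atp symbol, or with rbcL, ycf3, ycf4, ccsA or cemA. The rule found 41 genes, each with 1 probe set, among the 16541 probe sets of the table, which name 9058 genes singly. All 41 matched a plastid gene in the TAIR10.1 gene table. That table holds 48 plastid genes that meet the rule, and the other 7 (psaC, petD, petG, petN, ndhB, ndhG and ndhH) were not analysed here. The 41 comprise 4 photosystem I genes, 15 photosystem II genes, 3 cytochrome b6f genes, 6 ATP synthase genes, 8 NDH genes and 5 others.

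The study compared 2-week-old Arabidopsis thaliana of ecotype Columbia, wild type against the double knockout KO-HsfA1d/A1e, on Affymetrix arrays of rosette leaf RNA. HsfA1d and HsfA1e encode heat shock factors, transcription factors that act in the nucleus. Both genotypes grew on MS medium at 100 µE m-2 s-1, in days of 16 h light (25°C) and 8 h dark (22°C), and both received 400 µE m-2 s-1 for 30 min, so every value is from high light. The labels give 1 array per genotype, each named biological replicate 1, and do not give the alleles of the mutant or the number of plants behind an array. Differences therefore compare 2 arrays, without replicate error and without a test.

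The thylakoid membrane of the chloroplast holds the complexes of the light reactions. Photosystem II takes electrons from water, cytochrome b6f passes them on while moving protons, photosystem I drives them to ferredoxin, and ATP synthase uses the proton gradient. The NDH complex returns electrons from ferredoxin to the plastoquinone pool. Each complex mixes subunits encoded in the plastid with subunits encoded in the nucleus, and plastid genes are mostly transcribed in multi-gene units and then processed. The photosystem II protein D1, encoded by psbA, is the best-known target of light damage and is continually replaced.

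The arrays were labelled with the 3'IVT Express procedure from 100 ng of total RNA. This labelling primes on poly(A) tails, which plastid transcripts mostly lack or carry only briefly, so how an intensity relates to transcript level is uncertain for every gene described here. Intensities of different probe sets are given side by side and are not ranked as levels. The arrays had median intensities of 334.1 (wild type) and 331.9 (mutant) over all probe sets. Of 9 leaf markers, 3 were measured (RCA, LHCB4.1 and PRK), with intensities from 11093 to 22929 in the wild type and from 11615 to 25125 in the mutant. Markers of other tissues were measured for 3 of 4 genes. The root marker PYK10 had 2555 in wild-type and 3758 in mutant leaves, the guard cell marker FMA had 339.7 and 316.3, and AUR1, a gene of dividing cells, had 156.3 and 166.3. Their part in the differences was not tested. In leaf RNA, fewer chloroplasts or cells of a type and less RNA in each cannot be told apart.

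Differences are mutant minus wild type on the scale log2(intensity + 16). A gene counted as past the expression filter where its mean on that scale was at or above 8.44, the median of all probe sets, which corresponds to an intensity of 332.0. Of the 41 genes, 16 were past this filter and 25 were under it. The only scatter estimate within these arrays came from 13 genes of any kind that had a pair of probe sets past the filter, whose differences had an SD of 0.20 around their mean and a largest gap of 0.56. Spread between plants or between arrays is not part of it.

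Plastid photosynthesis transcripts were close to each other on the wild-type and mutant arrays. Past the filter, 0 of 16 genes were at least 2-fold higher in the mutant, where 0.121% of all probe sets past the filter were, and 0 of 16 were at least 2-fold lower, where 1.38% were. Under the filter, 1 of 25 was at least 2-fold higher, psbN, against 1.41% of all probe sets under the filter, and 0 of 25 were at least 2-fold lower, against 3.18%. Counts of 0 or 1 in groups of this size lie near the background. The median difference of the 41 was 0.04, against 0.03 over all probe sets, and their median absolute difference was 0.19, against 0.19. Past the filter the median was 0.09, against 0.03 over all probe sets past it.

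**Figure D1:**
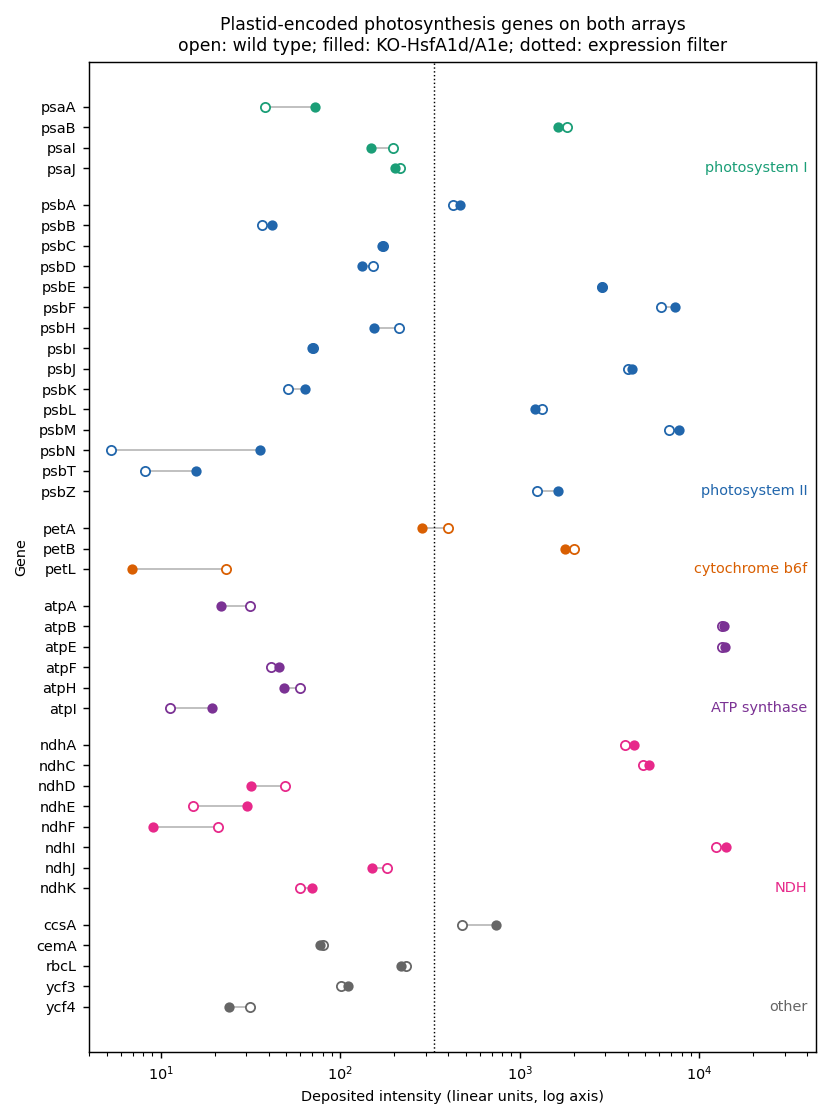
Deposited intensity of each of the 41 genes (linear units on a log axis) on the wild-type array (open) and the mutant array (filled), coloured by complex, with a dotted line at the filter intensity of 332.0. The open and filled points of a gene past the line lie close together, and the widest gap is that of psbN, far to the left of it.

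Photosystem II had all 15 of its plastid genes measured. Of these, 10 had the higher value in the mutant and 5 the lower, with a median difference of 0.13 (range -0.41 to 1.28). The gene psbA, for the reaction centre protein D1, had an intensity of 427.0 in wild-type and 467.3 in mutant leaves, a difference of 0.13. Its partner D2 is encoded by psbD, which had 152.6 and 133.2 (-0.18). The core antenna genes psbB and psbC had 36.5 against 41.7 (0.14) and 173.1 against 170.5 (-0.02). All 4 differences were smaller than the SD of 0.20 between probe sets of a gene. That SD came from genes past the filter, and of these 4 only psbA was past it. It therefore gives no scatter estimate for psbD, psbB and psbC.

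The genes psbE and psbF encode the subunits of the cytochrome of photosystem II. In the wild type and the mutant, psbE had 2863 and 2882 (0.01), and psbF had 6142 and 7329 (0.25). Transcribed with them are psbL and psbJ, which encode small membrane subunits. Their values were 1338 and 1222 for psbL (-0.13), and 4021 and 4226 for psbJ (0.07). All 4 genes of this unit were past the filter, and their differences spanned 0.38 with 3 higher and 1 lower. The value of psbE turned from 0.01 to -0.03 after a loess correction.

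Other small subunits past the filter were psbM and psbZ. The psbM probe set gave 6772 in wild-type and 7751 in mutant leaves (0.19). That of psbZ, whose product in tobacco stabilises the contact with the light-harvesting antenna, gave 1248 and 1641 (0.39). The psbZ value was the highest photosystem II difference past the filter, and it still lay inside the central 95% of all probe sets with a mean of 10 or more, which ran from -0.72 to 0.49.

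Under the filter, psbH, which encodes a phosphorylated subunit, had the lowest value of the complex, with 211.5 in wild-type and 155.3 in mutant leaves (-0.41). Small subunits of the reaction centre and its surroundings are encoded by psbI, with 70.4 and 69.9 (-0.01), psbK, with 50.9 and 63.9 (0.26), and psbT, with 8.18 and 15.8 (0.39). The psbT signal was near the bottom of the wild-type array, at percentile 0.447.

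The gene psbN was the single member at least 2-fold apart. It is named as a photosystem II gene, but in tobacco its product is needed to assemble the complex and is not a lasting subunit. Wild-type leaves gave an intensity of 5.31, at percentile 0.266 of that array, and mutant leaves gave 35.9. The difference was 1.28 on the log2 scale, or 30.6 intensity units, and the ratio of the intensities was 6.75. Both values were small: the lowest 5% of the arrays ended at 31.7 in wild-type and 31.9 in mutant leaves. With a pseudocount of 64 in place of 16 the difference was 0.53, under 2-fold, and with a pseudocount of 1 it was 2.55. The gene lies between psbT and psbH on the strand opposite to them, and those neighbours had differences of 0.39 and -0.41. Signal from the opposite strand was not tested.

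**Figure D2:**
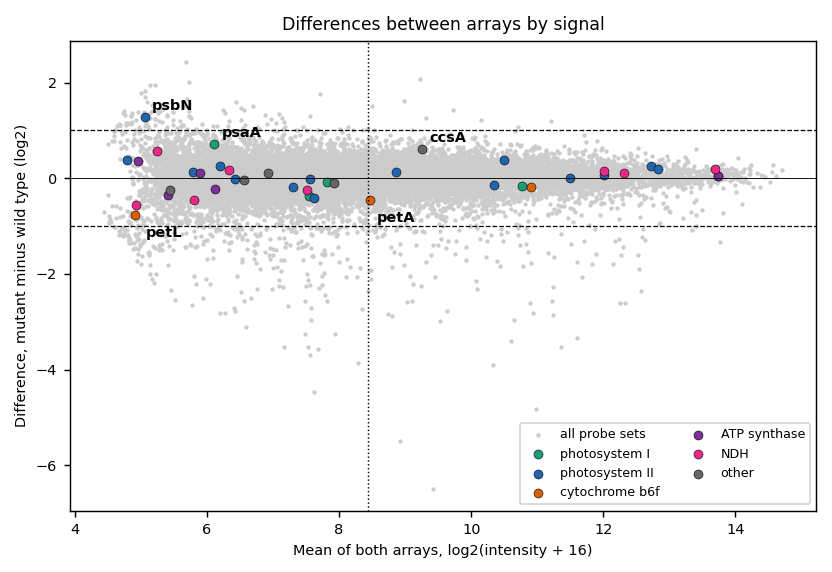
Difference (mutant minus wild type, log2) against the mean of both arrays on the scale log2(intensity + 16), for all 16541 probe sets (grey) and the 41 genes coloured by complex; dashed lines mark 2-fold and the dotted line the filter. The cloud widens to the left, where psbN (1.28) and petL (-0.77) lie, and the genes with a mean of 10 or more stay between -0.18 and 0.39.

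Photosystem I had 4 of its 5 plastid genes measured, 1 higher and 3 lower in the mutant, with a median of -0.12. The large reaction centre proteins are encoded by psaA and psaB. The psaB probe set had 1826 in wild-type and 1636 in mutant leaves (-0.16), the only one of the complex past the filter. The psaA probe set had 38.0 and 72.4, a difference of 0.71 with the opposite sign, although both genes belong to 1 transcription unit. The neighbouring ribosomal protein gene rps14, the last gene of that unit, had 14.5 and 29.5 (0.58), also at low signal. The small subunit genes psaI and psaJ were lower in the mutant, with 195.9 and 149.0 for psaI (-0.36) and 214.6 and 202.8 for psaJ (-0.08).

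Plastid genes for photosystem I assembly, ycf3 and ycf4, went opposite ways under the filter. The ycf3 values were 101.6 in wild-type and 110.4 in mutant leaves (0.10), and those of ycf4 were 31.3 and 24.0 (-0.24).

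Cytochrome b6f was the only complex in which every measured gene had the lower value in the mutant, 3 of 3 with a median of -0.45, though 3 of its 6 plastid genes were not analysed. The gene petA, for cytochrome f, had 396.7 in wild-type and 285.1 in mutant leaves (-0.45), and was just past the filter with a mean of 8.46. For petB, which encodes cytochrome b6, the values were 2019 and 1783 (-0.18). The small subunit gene petL had 23.0 and 6.93 (-0.77), a change of -16.1 intensity units, with both values inside the lowest 5% of their array. None reached 2-fold on the scale log2(intensity + 16), but the plain intensity ratio of petL was 3.33 with the mutant lower, and its difference was -1.60 with a pseudocount of 1. These are 3 genes on 1 pair of arrays, and no test sets the complex apart from the rest. All 3 kept their sign under median centring, quantile normalization and loess. The median was -0.32 over the 2 genes past the filter and -0.30 with a pseudocount of 64.

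ATP synthase had all 6 plastid genes measured, 4 higher and 2 lower, with a median of 0.05. The genes atpB and atpE encode the catalytic beta subunit and the regulatory epsilon subunit of the soluble head, overlap in 1 transcription unit, and were the only ones of the complex past the filter. In the wild type and the mutant, atpB had 13392 and 13781 (0.04), and atpE had 13375 and 13924 (0.06). After quantile normalization and loess the atpB difference was -0.01 in each, so its sign was not settled. These were the closest pair of differences of any transcription unit, 0.02 apart.

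The other unit, atpI, atpH, atpF and atpA, was wholly under the filter. The gene atpA, for the alpha subunit of the head, had 31.6 in wild-type and 21.6 in mutant leaves (-0.34). Membrane part genes were atpI with 11.3 and 19.2 (0.37), atpH, for the ring subunit, with 59.6 and 48.4 (-0.23), and atpF with 41.3 and 45.5 (0.10). Differences within this unit spanned 0.71 although the genes are transcribed together.

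The NDH complex had 8 of its 11 plastid genes measured, 5 higher and 3 lower, with a median of 0.13. The 3 past the filter were all higher in the mutant. For ndhI, which encodes an iron-sulfur subunit, the values were 12334 in wild-type and 14183 in mutant leaves (0.20). For the membrane subunit genes ndhA and ndhC they were 3875 and 4320 (0.16), and 4887 and 5264 (0.11). These 3 differences were no larger than the SD of 0.20 between probe sets of a gene, and they kept their sign under all 3 scalings.

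The remaining NDH genes were under the filter and went both ways. The stromal arm genes ndhJ and ndhK, transcribed with ndhC, had 181.9 and 151.2 (-0.24), and 59.6 and 69.5 (0.18). Membrane arm genes were ndhD with 49.4 and 31.8 (-0.45), ndhE with 15.1 and 30.3 (0.57), and ndhF with 20.8 and 9.02 (-0.56). Without a pseudocount, the intensity ratio of ndhE was 2.01 with the mutant higher and that of ndhF was 2.31 with the mutant lower. The other ratios of at least 2 among the 41 genes were those of psbN and of petL, 3.33 with the mutant lower. All 4 of these genes had an intensity under the 5% limit on at least 1 array. The share of all probe sets at such a plain ratio was not computed, so this count of genes has no background beside it.

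Outside these complexes, rbcL encodes the large subunit of Rubisco, the enzyme that fixes carbon dioxide. Its probe set had 234.1 in wild-type and 216.9 in mutant leaves (-0.10). The cemA gene, for a protein of the chloroplast envelope, had 80.1 and 77.3 (-0.04). The highest difference past the filter among all 41 genes was that of ccsA, whose product attaches haem to c-type cytochromes, cytochrome f among them. It had 478.9 and 742.7 (0.62), a ratio of 1.55, and ran between 0.57 and 0.63 over the scalings and pseudocounts. The gene for cytochrome f itself, petA, had the lowest difference past the filter (-0.45). The petA mean of 8.46 was just past the filter, and its mutant intensity of 285.1 was under the filter intensity of 332.0. A link between the differences of ccsA and petA was not tested.

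**Figure D3:**
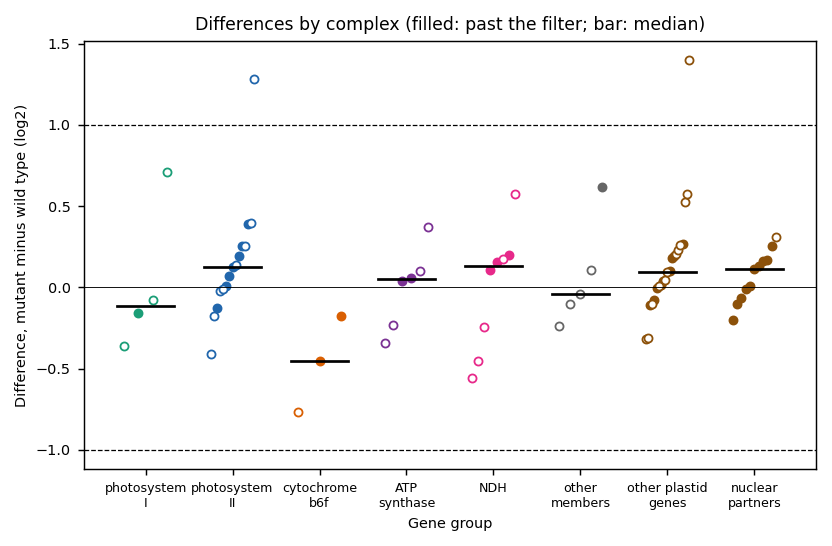
Difference (mutant minus wild type, log2) of every gene by complex, with the other plastid genes and the nuclear-encoded partners at the right; filled points are past the filter, bars are medians and dashed lines mark 2-fold. The medians lie between -0.45 (cytochrome b6f) and 0.13 (NDH), and the points past the dashed lines are psbN (1.28) and rps15 (1.40).

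The share of genes with the higher value in the mutant was counted past and under the filter. Past it, 12 of 16 genes had the higher value in the mutant, against 56.3% of all probe sets past it. Under the filter, 10 of 25 were higher, against 52.5%, and the difference between these shares was not tested. The count past the filter was 12 of 16 after median centring, against 57.9% of all probe sets past it, 11 after quantile normalization, against 55.6%, and 10 after loess, against 49.6%.

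Differences were also set against signal. The probe sets were split into 4 bands of mean log2 value, chosen after the values were seen. In the lowest band, under 6, the 11 genes had a median absolute difference of 0.39, against 0.37 for the 1566 probe sets there. Between 6 and the filter, the 14 genes had 0.18, against 0.22 for 6704 probe sets. From the filter to 10 there were only 3 genes, psbA, petA and ccsA, with 0.45 against 0.16 for 4758 probe sets. In the highest band, at 10 and over, the 13 genes had 0.16, against 0.14 for 3513 probe sets. Of the 41 genes, 3, or 7.32%, lay outside the central 95% of their band: psbN, psaA and ccsA, all higher in the mutant. The share of all probe sets outside, 5.02%, was fixed in advance, since the limits were drawn from these same probe sets. The psaA mean of 6.11 was just over the band edge of 6. Its difference of 0.71 lay inside the central 95% of the band below, which ran from -1.38 to 1.24.

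Transcription units known from the plastid genome were then compared, as 11 units that hold 34 of the genes. Their make-up was written down with the values in view. In 8 of the 11, differences of both signs occurred within the unit on the values as deposited. Since 54.4% of all probe sets were higher in the mutant, small groups of any probe sets often hold both signs. How often was not computed, so the count is not read as a result about transcription units. This count depends on scaling. In the unit of psbK and psbI, the psbI sign turned under median centring and quantile normalization. In that of atpB and atpE, the atpB sign turned under quantile normalization and loess. The range was widest in the unit of ndhA, ndhI, ndhE and ndhD, from -0.45 to 0.57. There, wild-type intensities ran from 15.1 to 12334, so probe sets for genes of 1 unit gave very different signals. The units of atpB and atpE, of petL and psaJ, and of psaI, ycf4, cemA and petA had 1 sign throughout among the genes chosen.

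In the last of these all 4 genes had the lower value in the mutant, from -0.45 for petA to -0.04 for cemA. The accD gene, which begins that unit and encodes a subunit of the enzyme that makes malonyl-CoA, had the opposite sign, with 37.4 in wild-type and 46.6 in mutant leaves (0.23). The rbcL gene, next to accD, was lower (-0.10). On the far side of rbcL, the neighbours atpB, atpE, ndhC and ndhK were all higher in the mutant, by 0.04 to 0.18, although atpB turned sign under a pair of the scalings. The next gene, ndhJ, which is transcribed with ndhC and ndhK, was lower (-0.24).

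**Figure D4:**
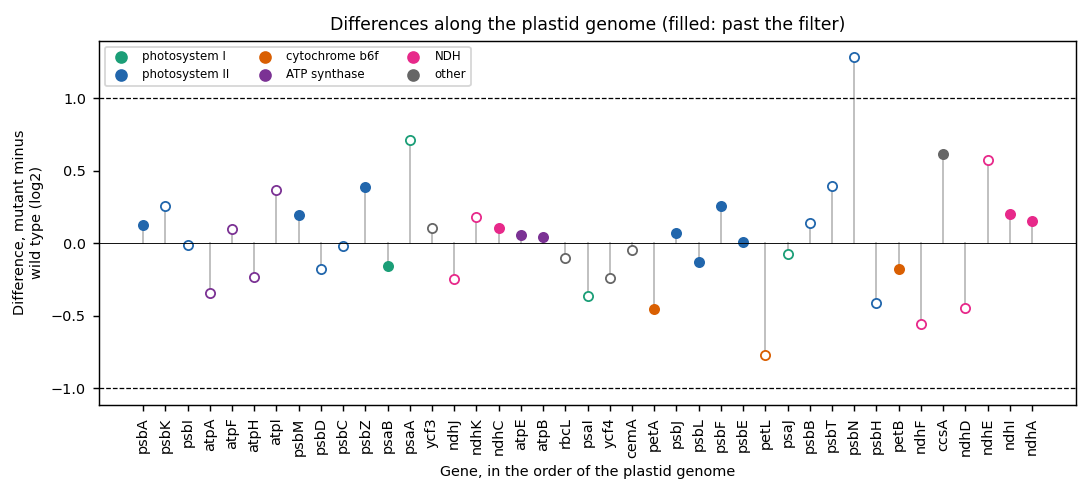
Difference (mutant minus wild type, log2) of the 41 genes in the order they take on the plastid genome, coloured by complex and filled where past the filter; dashed lines mark 2-fold. Both signs occur along the genome, with short runs of 1 sign among the genes shown. Examples are the positive values from ndhK to atpB and the negative values from rbcL to petA. The filled points stay between -0.45 and 0.62.

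The plastid also encodes its own ribosomal proteins and RNA polymerase. Of these and other plastid genes, 21 were measured, with a median difference of 0.09, 15 higher and 6 lower. Past the filter, 0 of 9 reached 2-fold, and the values ran from -0.11 for rps19, with 621.2 in wild-type and 575.0 in mutant leaves, to 0.26 for rpl32, with 2572 and 3091. The dim rps15 had 16.5 and 69.6 (1.40), the 1 gene at least 2-fold apart among the 12 under the filter. The photosynthesis genes had a median of 0.04, so both classes of plastid gene lay within 0.1 of 0.

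Nuclear-encoded partners of the plastid-encoded subunits were listed as 58 genes. The list takes in electron carriers and the Rubisco activase RCA, which are not subunits of these complexes. Among the listed genes 11 were measured, RCA included. Of these, 7 were higher and 4 lower, 0 reached 2-fold, and the median was 0.12, which became 0.00 after quantile normalization. The highest past the filter was PSAE-1, a stromal subunit of photosystem I, with 12426 in wild-type and 14817 in mutant leaves (0.25). The lowest was NdhS, a subunit of the NDH arm that binds ferredoxin, with 1920 and 1671 (-0.20). The 1 measured locus of the cytochrome b6f and electron carrier list, AT2G26500, had 19506 and 18195 (-0.10).

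None of the 8 listed nuclear genes for plastid transcription, the sigma factors and phage-type polymerases, could be analysed here. Of 9 listed nuclear factors for plastid RNA processing and photosystem assembly, 2 were measured. AT5G42310 had 890.4 in wild-type and 866.9 in mutant leaves (-0.04), and AT2G18940 had 323.7 and 423.9 (0.37), the gene table giving neither a name.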

How the data were processed

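The authors deposited 1 intensity, on a linear scale, for each probe set of each array. How they summarized probes, corrected background, scaled arrays or filtered probe sets is not given in the sources used here. Per the labels' protocols, Sepasol-RNA I served to extract total RNA, and the cRNA made from it carried biotin. The values were used as deposited, since the array medians differed by 0.02 on the log2 scale past the filter. Without detection calls, dim signal and background could not be separated, and the number of arrays limits the precision.

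Symbols came from GEO's platform annotation and were matched by Entrez identifier to the TAIR10.1 gene table, used for names and gene order only. Of 16541 probe sets, 9139 had 1 symbol, 340 several and 7062 none. The symbol rule gave the 41 genes. The nuclear lists hold loci written down from general knowledge, and the brightest singly named probe set stood for each gene. The genes and lists were chosen with earlier results of these data known. All 41 genes may be named by the rule used, and of other lists the extremes past the filter and every gene at least 2-fold apart are named, with accD, rps14 and AT2G26500 added after their values were seen. The measured tissue markers are named as a check of the label.

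Intensities were taken as log2(intensity + 16), with Python 3.11.15, numpy 2.4.6 and pandas 2.3.3. The 2-fold limit is a log2 difference of 1 or more. The procedure was tested on simulated data, with differences beyond the 2-fold limit placed only in probe sets brighter than the median. Recovery of smaller differences, or of differences in dimmer probe sets, was not tested. The alternatives tried were quantile normalization, median centring, a loess fit of differences on means (span 0.3, statsmodels 0.14.6), pseudocounts of 1 and 64, other filters and thresholds, and dropping IDs that end in _s_at or _x_at. The 2 filters on the brighter value and on list members were added after seeing the data.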

Additional observations from a re-analysis of the deposited data

How the results depend on the processing

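No paired analysis was possible because the groups share only number 1, and with single arrays no replicate could be left out. The count of 0 genes at least 2-fold higher past the filter became 1 with no filter (psbN) and 1 at 1.5-fold (ccsA), and the count lower stayed at 0 under all the alternatives run. The cytochrome b6f median of -0.45 became -0.30 with a pseudocount of 64, -0.18 with the filter at percentile 75, which leaves 1 gene, and -0.32 over genes past the filter. The median of the nuclear-encoded partners moved from 0.12 to 0.00 after quantile normalization. That method sets the difference of a gene with equal rank on both arrays to 0. Of the 11 measured partners only RCA had equal rank, at percentile 99.98 on both arrays, so the median of 0.00 is its value. Another 88 group values stayed within 0.1 or at the same count, some of them by construction, since no ID of the 41 genes ends in _s_at or _x_at and the group medians use no filter. Among single genes, psbN fell under 2-fold with a pseudocount of 64 (0.53), and petL and ndhF passed it with a pseudocount of 1 (-1.60 and -1.12). Under the 3 scalings, atpB, psbE, psbC and psbI turned sign, all at differences within 0.05 of 0. Genes under the filter, 25 of the 41, are limited by the unknown background.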
